A study of Mus musculus with 12 samples.

Results

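Described here are 4 genes of this system, of the 12975 genes in the count table: C4b, which encodes C4, Serping1, C3, and C1ra, which encodes the protease C1r. They were picked by gene name as components and an inhibitor of complement, with their levels in the groups already known, so their values are a description and no test is given on them. Complement is a cascade of plasma and tissue proteins that tags particles for uptake, attracts leukocytes and can lyse membranes. The classical pathway starts when C1q, carrying the proteases C1r and C1s, binds its target and cleaves C4 and C2, and the lectin and alternative pathways meet it at C3, the central component. The C1 inhibitor encoded by Serping1 blocks C1r, C1s and the lectin pathway proteases. In the gut wall, complement genes are known from macrophages, fibroblasts, mesothelium and glia as well as from the liver-derived plasma supply.

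The libraries came from the muscularis externa of PLPCreERT2 Rpl22HA mice with a stated age of 10 to 12 weeks. All animals, naïve ones included, had received 2 intraperitoneal injections of tamoxifen (15 mg/ml, 100 µl), which switches on an HA-tagged copy of the ribosomal protein Rpl22 in cells that express the Cre. Sacrifice is given at 3 to 4 weeks, read here as the time after tamoxifen. Whether 10 to 12 weeks was the age at injection or at sacrifice is not settled here. The naïve animals (T0) and the animals taken 3 h after intestinal manipulation (T3) were different mice, with 3 mice at each time and 6 in all. Each mouse gave an anti-HA pull-down (HA), meant to hold ribosome-bound mRNA of enteric glial cells (EGCs), and a control IgG pull-down of the same homogenate (IgG), which gave 12 libraries in 4 groups of 3. The Cre is not restricted to EGCs, since other peripheral glia such as Schwann cells can carry it too.

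Depth differed between the groups. Totals of UMI counts ran from 1221788 to 2870591 in the HA libraries, from 388214 to 1289833 in IgG at T0 and from 88136 to 248522 in IgG at T3, so that a gene at 100 CPM (UMI counts divided by the library's total and scaled to 1e+06) rests on few UMIs in the last group. The 9 EGC markers (Sox10, S100b, Gfap and others) summed to 3668 to 5146 CPM in HA. In IgG they summed to 178 to 242 CPM at T0 and 221 to 987 CPM at T3. All 9 passed the test in favour of HA at T0 (16.0% of all genes tested did), and 7 of 9 did at T3 (11.8%). Rpl22, the tagged gene, stood at 61.5 to 93.7 CPM in HA and at 10.9 to 34.0 CPM in IgG. The HA libraries were not free of other cells. The 6 smooth muscle markers still summed to 12170 to 22780 CPM in HA against 39190 to 61440 CPM in IgG, and the 3 markers of interstitial cells of Cajal, at 2604 to 3366 CPM in HA and 233 to 316 CPM in IgG at T0, were on the HA side, with 2 of the 3 (Kit and Ano1) called higher at T0 (16.0% of all genes tested were). Their sum at T3 was 1170 to 1533 CPM in HA and 177 to 760 CPM in IgG. The IgG libraries of animals 1 and 3 at T3 were above all IgG libraries at T0 in this sum and the EGC sum. The IgG background was thus not the same at both times. In bulk pull-downs, fewer cells of a type and less RNA per cell cannot be told apart.

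On the mouse GRCm38 assembly, C4b lies at chr17:34728380-34743882 on the minus strand with 41 exons, and C3 at chr17:57203970-57228136 on the minus strand, also with 41 exons and with the microRNA gene Mir6978 inside its bounds. Serping1 lies at chr2:84765387-84775444 on the minus strand with 8 exons, and C1ra at chr6:124512405-124523443 on the plus strand with 11 exons. The libraries counted reads from 1000 bases before to 100 bases after the 3′ end of each gene, and no other annotated gene fell in that window for any of these genes. Both C4b and C1ra have a near-identical copy. The C4b and C4a transcripts were identical at 97.7% of the aligned positions in the last 1000 bases and shared 38.3% of their 50-base windows, and C1ra and C1rb were identical at 96.9% and shared 30.8%, and since only uniquely mapped reads were counted, those from shared stretches drop out and the values of C4b and C1ra are uncertain to that extent. C1rb was not analysed here.

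RefSeq promoter sequences, from 250 bases before to 50 bases after RefSeq's own start, were at hand for C3 and C1ra, the pair of genes that were higher in IgG than in HA. They are shown because both genes are inducible by inflammatory signals in many tissues, through factors whose short recognition letters can be looked up in them. Capitals mark matches to the C/EBP letters TTGCNNAA and the STAT (GAS) letters TTCNNNGAA, searched on both strands.
C3 (chr17:57228087-57228386, minus strand, GRCm38.p6): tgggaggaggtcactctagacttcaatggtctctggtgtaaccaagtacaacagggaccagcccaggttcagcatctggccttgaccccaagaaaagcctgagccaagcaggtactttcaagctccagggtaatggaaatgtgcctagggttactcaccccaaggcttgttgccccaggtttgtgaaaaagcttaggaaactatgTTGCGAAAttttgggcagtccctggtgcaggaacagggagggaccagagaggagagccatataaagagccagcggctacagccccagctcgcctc
C1ra (chr6:124512371-124512670, plus strand, GRCm38.p6): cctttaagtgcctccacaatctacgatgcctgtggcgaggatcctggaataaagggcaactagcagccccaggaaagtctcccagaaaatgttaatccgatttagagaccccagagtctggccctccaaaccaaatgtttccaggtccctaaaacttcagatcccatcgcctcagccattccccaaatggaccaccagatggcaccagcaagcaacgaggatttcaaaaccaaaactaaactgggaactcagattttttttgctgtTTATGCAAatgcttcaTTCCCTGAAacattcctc
The C3 promoter held 1 C/EBP match, TTGCGAAA, at bases 206 to 213. The C1ra promoter held a C/EBP match on the opposite strand, TTGCATAA, at bases 267 to 274 and a GAS match, TTCCCTGAA, at bases 283 to 291, both after the RefSeq start. That start lies inside the bounds of the C1ra gene given above, so most of this C1ra window is downstream of the gene's annotated 5′ end there. Of 32851 mouse promoters of the same length, 10.8% held the C/EBP letters and 8.30% the GAS letters by the same search. Neither window held the NF-kB motif (8.46% of promoters), the ISRE motif (3.44%) or the AP-1 letters TGANTCA (7.81%). C4b and Serping1 were not among the promoters used here.

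The 4 genes divided by pull-down. C4b and Serping1 were higher in HA and C3 and C1ra were higher in IgG. C4b stood at 738, 752 and 568 CPM in HA at T0 (animals 1, 2 and 4) and at 144, 130 and 208 CPM in IgG of the same animals. Each HA library was thus above all the IgG libraries, by 2.74 to 5.77 times within an animal. The log2 fold change of HA over IgG was 2.05 ± 0.23 (SE, n = 3 and 3), or 4.15-fold. Serping1 stood at 572, 554 and 505 CPM in HA and at 291, 204 and 377 CPM in IgG at T0, again with no overlap. Its difference was smaller, with 1.34 to 2.72 times more in HA within an animal and a log2 fold change of 0.87 ± 0.23 (SE).

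C3 stood at 361, 553 and 342 CPM in HA at T0 and at 935, 886 and 1724 CPM in IgG. All 3 IgG libraries were above all HA libraries, by 1.60 to 5.04 times within an animal, with a log2 fold change of -1.53 ± 0.29 (SE). C1ra stood at 91.0, 97.2 and 43.2 CPM in HA and at 945, 345 and 188 CPM in IgG. The IgG library of animal 1 was far above the other IgG libraries, and the groups did not overlap. The log2 fold change of C1ra was -2.68 ± 0.78 (SE) and was -1.76 without that library, in which the neuron markers were also highest, at 2445 CPM in sum against 1063 and 1538 CPM in the other IgG libraries at T0. Whether that bears on C1ra was not tested. All 4 genes had groups that did not overlap in CPM at T0. Of 9823 genes tested at T0, 44.8% had groups that did not overlap, and as the genes were chosen from these values nothing is read from their count.

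**Figure D1:**
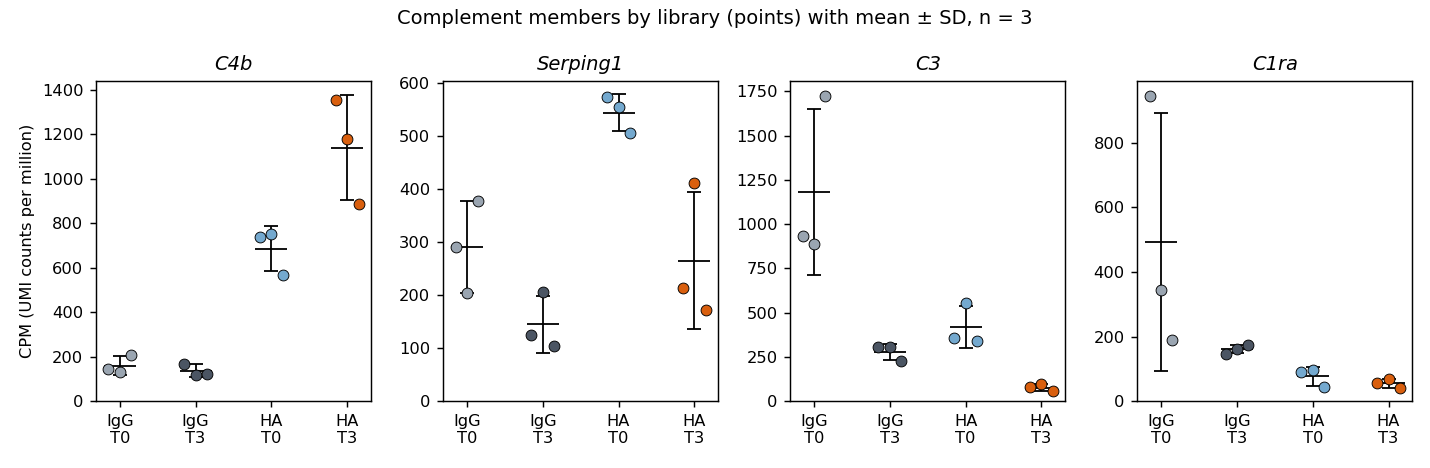
Levels of C4b, Serping1, C3 and C1ra in CPM (linear axis from 0) in each library, with the mean and SD of the 3 libraries of a group. C4b is highest in HA at T3 (885 to 1352 CPM), C3 is lowest there (58.4 to 95.6 CPM), and 1 IgG library at T0 carries most of the C1ra mean.

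After manipulation C4b was higher in the glial pull-down than in naïve mice, while C3 was lower in both pull-downs. C4b stood at 1352, 1180 and 885 CPM in HA at T3 (animals 1, 3 and 4). Every T3 library was above every T0 library, and the log2 fold change of T3 over T0 in HA was 0.99 ± 0.19 (SE), or 1.98-fold. It was 0.73 with total counts as scaling, which put the median of all genes at -0.29 rather than -0.016. In IgG, C4b stood at 170, 120 and 125 CPM at T3, from 15, 11 and 31 UMIs, which overlapped the T0 libraries. The library with 11 UMIs has an exact 95% counting interval of 59.7 to 214 CPM. The log2 fold change over time in IgG was -0.27 ± 0.33 (SE). HA over IgG at T3 was 3.15 ± 0.31 (log2, SE), or 8.88-fold. The change of C4b with time was larger in HA than in IgG by 1.36 ± 0.38 (log2, SE), and by 1.00 to 1.45 over the scaling choices and libraries left out.

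C3 stood at 78.6, 95.6 and 58.4 CPM in HA at T3 and at 306, 304 and 229 CPM in IgG. No T3 library of either pull-down reached a T0 library of the same pull-down. The log2 fold change of T3 over T0 was -2.17 ± 0.23 (SE) in HA and -2.14 ± 0.35 (SE) in IgG, which are 4.49-fold and 4.40-fold lower. The difference between those changes was 0.065 ± 0.41 (log2, SE), with a sign that depended on scaling (-0.10 with RLE and -0.31 with total counts). The order of the pull-downs was kept, with IgG 3.18 to 3.93 times above HA within each animal and a log2 fold change of -1.72 ± 0.29 (SE).

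Serping1 stood at 213, 411 and 171 CPM in HA at T3, all below the T0 libraries, with a log2 fold change of -0.77 ± 0.28 (SE). Animal 3 was the high one, and without it the log2 fold change was -1.23. In IgG, Serping1 stood at 125, 207 and 105 CPM at T3, which touched the T0 range at 204 CPM, with a log2 fold change of -1.09 ± 0.36 (SE). HA and IgG overlapped at T3, although the HA library was 1.64 to 1.99 times higher within each animal. The log2 fold change of HA over IgG was 1.04 ± 0.37 (SE) and 0.49 without HA of animal 3. So of the pair on the HA side, C4b was higher and Serping1 lower in HA after manipulation. The change of Serping1 with time differed between HA and IgG by 0.42 ± 0.45 (log2, SE).

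C1ra stood at 58.1, 68.9 and 41.3 CPM in HA at T3, which overlapped the T0 libraries, with a log2 fold change of -0.19 ± 0.32 (SE). In IgG it stood at 148, 163 and 173 CPM, below all T0 libraries, with a log2 fold change of -1.60 ± 0.55 (SE), which was -0.73 without the IgG library of animal 1 at T0. HA over IgG at T3 was -1.45 ± 0.31 (log2, SE), with IgG 2.37 to 4.19 times higher within each animal. The difference between the changes with time was 1.48 ± 0.84 (log2, SE) and 0.52 without the same library. Between T0 and T3, groups did not overlap for 3 of the 4 genes in HA (50.8% of the genes tested there) and for 2 of 4 in IgG (26.0%), and between HA and IgG at T3 for 3 of 4 (35.8%).

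Ratios of counts inside 1 library do not depend on how libraries are scaled to each other. The ratio of C4b to C3 UMIs was 1.36 to 2.05 in HA at T0 and 12.3 to 17.2 in HA at T3. In IgG it was 0.120 to 0.154 at T0 and 0.393 to 0.556 at T3. The 4 groups did not overlap in this ratio, and HA at T3 stood apart from the rest by the largest step. The ratio of C4b to Serping1 was 1.13 to 1.36 in HA at T0 and 2.87 to 6.35 in HA at T3, against 0.496 to 1.36 over the IgG libraries. The ratio of C1s1, the partner protease of C1r, to C1ra was 0.861 to 1.48 in HA at T0 and 0.466 to 0.704 in HA at T3, so these subunits did not keep 1 proportion.

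**Figure D2:**
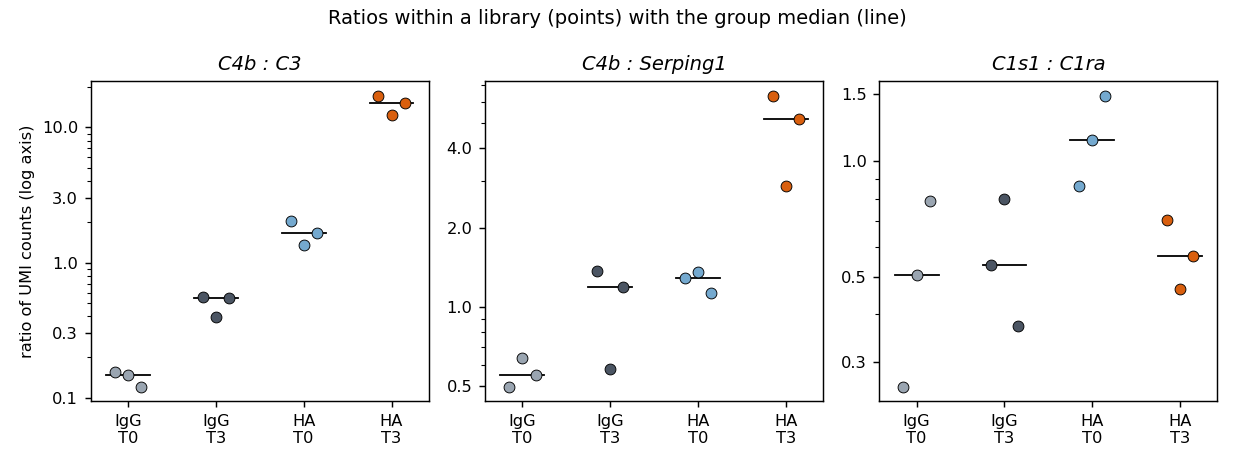
Ratios of UMI counts of gene pairs inside each library (log axes), with the group median as a line. C4b : C3 goes from 0.120 to 0.154 in IgG at T0 up to 12.3 to 17.2 in HA at T3 with no overlap between groups, whereas C1s1 : C1ra stands apart only in HA at T0 (0.861 to 1.48).

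The level of each gene ordered the groups differently. For C4b the order was HA at T3 (mean 1139 ± 236 CPM, SD), HA at T0 (686 ± 102), IgG at T0 (161 ± 41.3) and IgG at T3 (138 ± 27.9), and only the IgG groups overlapped. For C3 it was IgG at T0 (1182 ± 470), HA at T0 (419 ± 117), IgG at T3 (280 ± 43.9) and HA at T3 (77.5 ± 18.6), with no overlap between neighbours. For Serping1 it was HA at T0 (544 ± 35.0), IgG at T0 (291 ± 86.4), HA at T3 (265 ± 128) and IgG at T3 (145 ± 53.9), and HA at T3 overlapped the groups next to it. For C1ra it was IgG at T0 (493 ± 400), IgG at T3 (161 ± 12.9), HA at T0 (77.1 ± 29.6) and HA at T3 (56.1 ± 13.9), and the HA groups overlapped each other.

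Markers of other cells moved with the same groups. The 9 fibroblast markers summed to 2955 to 3184 CPM in IgG at T0, 1069 to 1407 in HA at T0, 1139 to 1902 in IgG at T3 and 312 to 548 in HA at T3. Of the 8 tested, 8 were lower in HA than in IgG at T0 (14.4% of all genes tested were). From T0 to T3, 6 of 8 fell in HA (15.1% of all genes) and 2 of 8 in IgG (1.03%). The 7 mesothelial markers with a row (Msln, Upk3b and others) summed to 567 to 1139, 188 to 249, 136 to 205 and 27.3 to 35.4 CPM in the same order of groups, and 5 of 5 tested fell in HA and 4 of 5 in IgG, with Bnc1 at 0 in all IgG libraries at T3. The 8 macrophage markers summed to 349 to 461, 215 to 315, 217 to 302 and 82.5 to 145 CPM. Of these, 2 of 8 tested were called lower in HA at T0, and 2 of 3 tested fell in HA over time and 0 of 2 in IgG. The ratio of C3 to the mesothelial sum was 1.45 to 2.37 in HA at T0 and 2.14 to 2.70 in HA at T3, and 1.32 to 1.65 and 1.12 to 2.25 in IgG. The ratio of C3 to the fibroblast sum was 0.306 to 0.393 and 0.174 to 0.214 in HA, and 0.294 to 0.542 and 0.160 to 0.208 in IgG. The part of these cells in the C3 values was not tested.

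The ratio of C4b to the fibroblast sum was 0.531 to 0.627 in HA at T0 and 2.15 to 3.69 in HA at T3. Its ratio to the EGC marker sum was 0.126 to 0.205 and 0.187 to 0.303 in HA, which overlapped, and 0.539 to 1.09 and 0.133 to 0.564 in IgG. The make-up of that sum in HA changed with time. Gfap in it stood at 96 to 130 CPM at T0 and 1515 to 1960 CPM at T3, and Gpr37l1 at 1566 to 1874 and 649 to 1036 CPM. Ratios to the EGC sum thus depend on the markers in it, and ratios without Gfap were not computed. The ratio of Serping1 to the EGC sum was 0.112 to 0.151 at T0 and 0.0361 to 0.0799 at T3 in HA, and 0.844 to 1.98 and 0.126 to 0.473 in IgG. Neither gene thus kept 1 proportion to the EGC sum over the pull-downs. The ratio of Serping1 to the fibroblast sum was 0.394 to 0.486 and 0.549 to 0.750 in HA, and 0.0690 to 0.118 over the IgG libraries. Markers of interstitial cells of Cajal, also on the HA side, were lower in HA at T3 too. Their sum in HA was 2604 to 3366 CPM at T0 and 1170 to 1533 CPM at T3. The ratio of Serping1 to that sum was not computed. Neutrophil and monocyte markers (S100a8, S100a9 and Ccr2 had a row) summed to 1.39 to 5.59 CPM in HA at T0 and 18.1 to 116 CPM in HA at T3, and S100a8 and S100a9 were at 0 in all IgG libraries at T0.

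**Figure D3:**
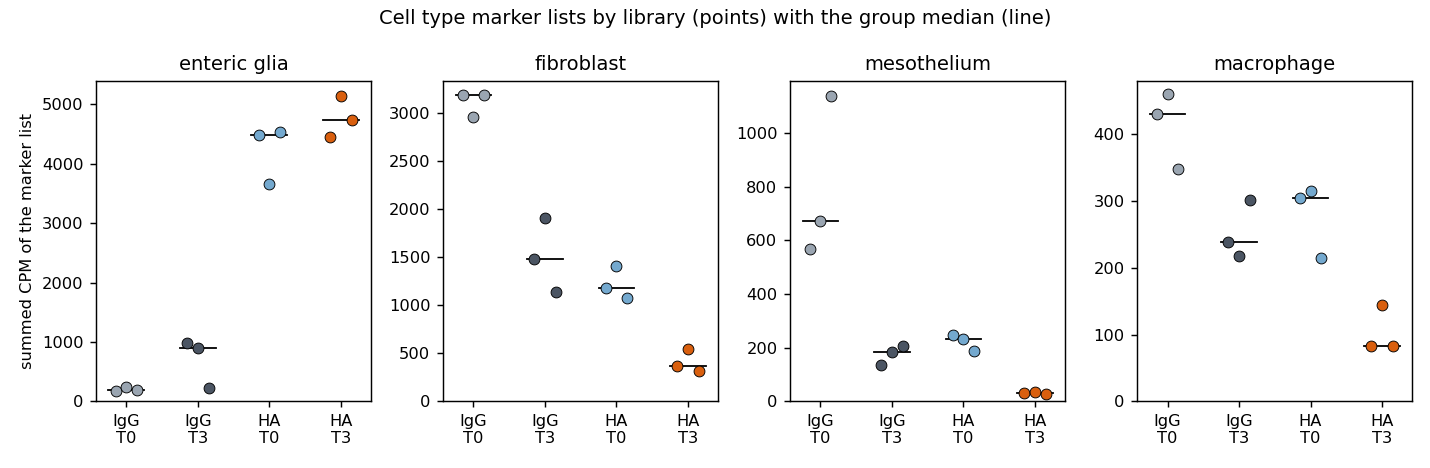
Summed CPM of marker lists of EGCs, fibroblasts, mesothelium and macrophages in each library (linear axes from 0), with the group median as a line. The EGC sum is high in HA at both times, with Gfap in it at 96 to 130 CPM at T0 and 1515 to 1960 CPM at T3. The fibroblast and mesothelial sums are lower in HA than in IgG and lower at T3 than at T0.

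The genes whose pattern was most like each member were sought by Pearson r of log2(CPM + 1) over the 12 libraries, among 8593 genes with a mean of at least 10 CPM. All points share the split into pull-downs and the differences in depth, so r is a description. Among the genes most like C4b were Timp2 (r = 0.97), an inhibitor of matrix metalloproteinases, and Acadsb (0.96). C3 was most like Ackr4 (0.98), a scavenging chemokine receptor, Dcn (0.98), the fibroblast proteoglycan decorin, and Ly6e (0.96). Serping1 was most like Itpa (0.95), Smim20 (0.94) and Bcap31 (0.93), and C1ra was most like Inpp4a (0.95), Psd3 (0.93) and Slc8a1 (0.92), a sodium-calcium exchanger. Among the members themselves, r was 0.70 for C3 with C1ra, 0.49 for C4b with Serping1, -0.62 for C4b with C3 and -0.78 for C4b with C1ra.

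The rest of the complement list held 54 genes, of which 29 had a row and 25 were not analysed here. These genes come from a list of the pathway and not from the rule that chose the 4 members, although the list was drawn up with earlier results of these data known. They were tested with edgeR's quasi-likelihood test and Benjamini-Hochberg adjustment over all genes tested. They are counted at an adjusted p under 0.05. Each library enters more than 1 of the comparisons, so the comparisons are not independent. For T3 against T0, the p-values measure the spread between 3 mice a group. HA and IgG came from the same mice, and the main fits of HA against IgG and of the interaction ignore that pairing.

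In naïve muscularis, more of the other complement genes were lower than higher in the glial pull-down. Of 17 tested, 6 were lower in HA (35.3%, against 14.4% of the 9823 genes tested) and 2 were higher (11.8%, against 16.0%), with a median log2 fold change of -0.65 against -0.015 over all genes. Of the classical pathway, C1s1 was lower by 2.26-fold, at 64.1 to 111 CPM in HA and 149 to 245 CPM in IgG, with a log2 fold change of -1.18 ± 0.26 (SE, adjusted p = 0.00358). C1qc, a chain of C1q, was at 46.3 to 79.9 CPM in HA and 104 to 111 CPM in IgG (-0.77 ± 0.25, adjusted p = 0.0275). The other C1q chains had log2 fold changes of -0.54 ± 0.40 (C1qa) and -0.65 ± 0.26 (C1qb) and passed when the animal was blocked (adjusted p = 0.00771 and 0.00442). C2 and Cfd did so too (adjusted p = 0.0298 and 0.000111). Over all alternatives the adjusted p ran from 0.00771 to 0.724 for C1qa, from 0.00442 to 0.296 for C1qb, from 0.0256 to 0.275 for C2 and from 0.000111 to 0.227 for Cfd. With the block, 10 of the 17 genes were lower and 2 higher, where 19.8% and 19.0% of the 9823 genes were.

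Of the alternative pathway, Cfb, the protease that pairs with C3b, was at 30.3 to 52.0 CPM in HA against 87.6 to 157 CPM in IgG at T0 (-1.55 ± 0.28 on the log2 scale, adjusted p = 0.000975), and Cfp (properdin, which stabilises the convertase) had -1.33 ± 0.38 (adjusted p = 0.0168). Of the lectin pathway, Colec10, a soluble collectin, was lower (-0.99 ± 0.27, adjusted p = 0.0139) and Colec12, a membrane scavenger receptor of the same family, was higher, at 102 to 114 CPM in HA against 36.4 to 67.0 CPM in IgG (1.13 ± 0.25, adjusted p = 0.00413). Among membrane regulators, Cd55 was lower (-2.22 ± 0.65, adjusted p = 0.0187, on 2 to 10 UMIs a library) and Susd4 higher (1.56 ± 0.44, adjusted p = 0.0155, on 2 to 8 UMIs in IgG), while Cd59a, which blocks the membrane attack complex, was at 1126 to 1299 CPM in HA and 1516 to 1730 CPM in IgG with an adjusted p of 0.0867. Cd55 passed the expression filter only through IgG and Susd4 only through HA, where each was high, so the filter favoured these directions.

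Several of these calls at T0 rested on single libraries. C1qc lost its call without HA of animal 1 or 4 or IgG of animal 2 or 4 (log2 fold change -0.82, -0.54, -0.74 and -0.79), Cfp without HA of animal 1 or 4 or IgG of animal 2 (-1.28, -1.06 and -1.21), Colec10 without IgG of animal 1 or HA of animal 2 (-0.67 and -0.82), Cd55 without IgG of animal 1 or HA of animal 4 (-1.76 and -1.66), and Susd4 without IgG of animal 2 (1.39). C1qc also lost it with no filter, with DESeq2 and when all 12 libraries were fitted together (-0.68, -0.72 and -0.75), and Susd4 with DESeq2 (1.64). Without HA of animal 2, C1qb, C2 and Cfd passed (-0.83, -1.16 and -1.62), and without IgG of animal 1, C2 did (-1.07). Calls of C1s1, Cfb and Colec12 held in each fit with 1 library left out.

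At 3 h post-injury, 12 of the other genes could be tested between HA and IgG. Lower in HA were 5 (41.7%, against 10.2% of the 7200 genes tested) and none was higher (against 11.8%), with a median log2 fold change of -1.19 against 0.021 over all genes. At an unadjusted p under 0.05, 1 gene was higher, C1qbp, a mitochondrial C1q-binding protein (0.89 ± 0.41, adjusted p = 0.135), and DESeq2 called none higher. C1qbp was called higher with no filter and in the fit of all 12 libraries. C1qa was lower, at 81.0 to 99.6 CPM in HA and 239 to 314 CPM in IgG (-1.53 ± 0.27, adjusted p = 0.000526), with C1qb (-1.35 ± 0.39, adjusted p = 0.0186), C1s1 (-1.32 ± 0.40, adjusted p = 0.0223), Colec10 (-1.42 ± 0.41, adjusted p = 0.0188) and Cfd, the protease factor D (-1.29 ± 0.37, adjusted p = 0.0196). Only C1qa kept its call in each fit with 1 library left out. C1qb lost it without HA or IgG of animal 1 or 4 (-1.07, -1.13, -1.40 and -1.25), C1s1 without IgG of animal 3 or HA or IgG of animal 4 (-0.95, -1.18 and -1.44), Colec10 without IgG of animal 1, HA of animal 3 or HA or IgG of animal 4 (-0.78, -1.47, -1.39 and -1.47), and Cfd without HA of animal 1, IgG of animal 3 or HA or IgG of animal 4 (-1.13, -0.86, -1.08 and -1.27). Cfd also lost it with DESeq2 and when all 12 libraries were fitted together (-1.24 and -1.02), and C1s1 with no filter (-1.08). Cd59a, not called in the full set (-0.61 ± 0.30), passed without IgG of animal 3 (-0.74).

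From T0 to T3 in the glial pull-down, 6 of 16 other complement genes fell (37.5%, against 15.1% of the 9441 genes tested) and 1 rose (6.25%, against 18.7%), with a median log2 fold change of -0.69 against -0.016. Colec12 fell from 102 to 114 CPM down to 29.6 to 33.6 CPM (-1.49 ± 0.20, adjusted p = 8.88e-06), so that the gene on the HA side at T0 was at -0.12 ± 0.44 in HA over IgG at T3 (adjusted p = 0.877). Cfb fell from 30.3 to 52.0 CPM down to 4.67 to 14.7 CPM (-1.85 ± 0.35, adjusted p = 0.000442), C2, which pairs with C4b in the classical convertase, from 24.4 to 55.3 CPM down to 3.89 to 17.4 CPM (-1.72 ± 0.46, adjusted p = 0.0132), and C1s1 from 64.1 to 111 CPM down to 23.4 to 40.9 CPM (-1.13 ± 0.25, adjusted p = 0.00196). Clu, the soluble inhibitor clusterin, fell from 277 to 395 CPM down to 141 to 173 CPM (-0.89 ± 0.19, adjusted p = 0.0013) and C1qc from 46.3 to 79.9 CPM down to 15.6 to 38.1 CPM (-1.03 ± 0.30, adjusted p = 0.0163).

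The gene that rose was C4a, the near-identical copy of C4b, from 2.44 to 5.59 CPM (7 to 10 UMIs) to 8.56 to 13.1 CPM (11 to 16 UMIs), with a log2 fold change of 1.76 ± 0.43 (adjusted p = 0.00387). Because the copies are so alike, C4a is no independent sign of a rise of C4. C4a also passed the expression filter only through HA at T3, the group where it was high, so the filter favoured a rise. Genes of 1 cascade thus differed in direction in HA, with C4b higher and C3 lower as described, and C1qc, C1s1, C2 and Cfb lower by the test. C1ra was at -0.19 ± 0.32 (log2, SE) in HA. The estimates of the lower genes were below 0 in IgG too. Their log2 fold changes over time in IgG were -2.14 (C3), -0.89 (C1qc), -1.13 (C1s1), -2.69 (C2) and -2.54 (Cfb), with C4b at -0.27. The other genes that fell in HA were at -0.42 ± 0.47 (Colec12) and -0.62 ± 0.29 (Clu) in IgG. Only C2 and Cfb of the genes tested were called in IgG, and none passed the interaction. The interaction had an SE of 0.92 for C2 and 0.80 for Cfb and was -1.005 ± 0.489 for Colec12. It could thus not settle whether the changes were alike in HA and IgG. In HA, C1qc lost its call without HA of animal 2 at T0 or of animal 1 or 4 at T3 (-0.85, -0.75 and -0.97) and C2 without HA of animal 1 at T3 (-1.61). C1qb (-1.01 ± 0.35, adjusted p = 0.0512) was at the threshold, and its adjusted p ran from 0.00449 to 0.143 over all alternatives. It passed without HA of animal 4 at T0 or of animal 3 at T3 (-1.26 and -1.37), and with RLE scaling, total counts, DESeq2 and a fit of all 12 libraries (-1.27 to -1.0). C1qa (-0.62 ± 0.31) and Cd59a (-0.39 ± 0.17) passed without HA of animal 4 at T0 (-0.95 and -0.50) and Colec10 (-0.57 ± 0.23) without HA of animal 2 at T0 (-0.73), and all 3 passed with total counts as scaling (-0.88, -0.65 and -0.83).

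**Figure D4:**
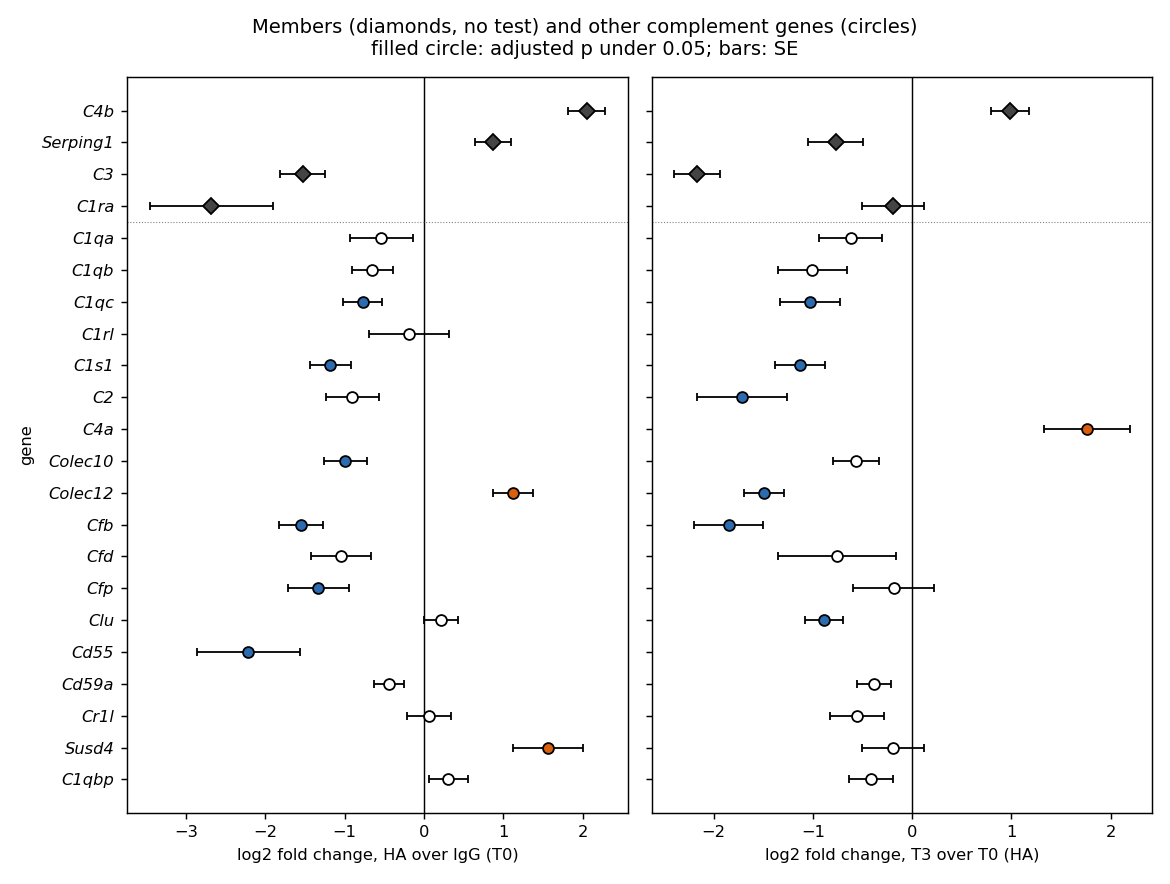
Log2 fold changes with SE of the 4 members (diamonds, no test) and the other complement genes tested (circles, orange for higher and blue for lower at an adjusted p under 0.05, white for no call), for HA over IgG at T0 (left) and T3 over T0 in HA (right). Lower calls outnumber higher ones in both panels (6 against 2 and 6 against 1), C4b and C4a are the genes to the right of 0 in the right panel, and a gene with no circle was not tested.

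In IgG, 12 of the other genes could be tested over time. From T0 to T3, 2 fell (16.7%, against 1.03% of the 5219 genes tested) and none rose (against 4.43%), at an unadjusted p under 0.05 as well as with DESeq2. C2 fell from 48.9 to 96.1 CPM down to 0 to 16.1 CPM (-2.69 ± 0.64, adjusted p = 0.0242) and Cfb from 87.6 to 157 CPM down to 0 to 54.3 CPM (-2.54 ± 0.64, adjusted p = 0.0341). At T3 these rested on 0 to 5 UMIs a library. C2 and Cfb passed the expression filter through the T0 libraries, where they were high, so the filter favoured a fall. Nothing is read from their share of the genes tested. Both lost their call without IgG of animal 4 at T3 (-3.79 and -2.14), of animal 2 at T0 (-2.75 and -2.72) or of animal 4 at T0 (-2.40 and -2.17), C2 also without animal 3 at T3 (-2.31) and Cfb without animal 1 at T3 (-2.15). C1s1 had the same estimate as in HA (-1.13 ± 0.37) with an adjusted p of 0.0959.

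The interaction of antibody and time was tested on 21 of the other genes in 1 fit of the 12 libraries. No gene passed (0.330% of the 10314 genes tested did), 0 of 21 had an unadjusted p under 0.05, and DESeq2 called none. The median difference was -0.073 against 0.18 over all genes, a value that was 0.016 with RLE scaling and -0.18 with total counts.

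Apart from C1qbp, the complement receptors named here and the terminal component were near the limit of counting. C3ar1, the receptor for the C3a fragment, had 0 to 5 UMIs in every library, Itgam and Itgb2, the chains of complement receptor 3, had 0 to 12, and C8g, the only terminal component with a row, had 0 to 4. In the main fits, C3ar1 and Itgb2 were tested only for the interaction, without a call. Itgam and C8g were tested in none, so whether these genes changed is left unanswered at this depth.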

How the data were processed

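The authors prepared 3′ libraries with unique molecular identifiers (a bulk form of MARS-seq). The sources name cutadapt, STAR 2.4.2a, HTSeq and DESeq2 1.26.0 and the mm10 build, and reads were counted near the 3′ end of each gene. The deposited values are raw UMI counts per gene, from uniquely mapped reads. The stated filter of 5 reads in at least 1 sample does not hold for 189 genes. The table of the whole series and the single-library tables differed in 0 values. CPM was a gene's counts over the library's total, scaled to 1e+06. Precision is set by the total counts, and intervals cover counting error only.

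The members, gene lists and tests were chosen with earlier results of these data known. Named genes were the 4 members, each other complement gene that passed in any comparison, and a fixed set named in any case (C1q chains, C1s1, C4a, Cd55, Cd59a, Clu), plus C1qbp, C3ar1, Itgam, Itgb2, C8g and those in the figures, chosen after their values were seen. edgeR 4.0.16 (R 4.3.3; TMM, filterByExpr, robust quasi-likelihood F-test) was fitted to the groups compared, with Benjamini-Hochberg adjustment over all genes, a threshold of 0.05 and an SE equal to the log2 fold change over the root of F. Some items, among them 1 gene of the complement list that was left out of its counts, are not reported here. The script was tested on simulated counts. Alternatives were RLE and total-count scaling, no filter, a filter of 5 counts in at least 1 library, DESeq2 1.42.0, a fit of all 12 libraries, the animal as a block, and each library left out. HA and IgG of a number came from 1 homogenate, and their deviations from the group means correlated with r from 0.145 to 0.306 within an animal and at most 0.00654 between animals. Gene positions are from GENCODE on GRCm38.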

Additional observations from a re-analysis of the deposited data

How the results depend on the processing

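The members' log2 fold changes, with 144 values from fits with 1 library left out and 136 under other settings, moved by less than the spread between replicates (the root of the within-group variances of log2(CPM + 1), summed over the groups compared), which is wider than the SE. Some of these fold changes moved by more than their SE, as given for C1ra and Serping1. The sign of the C3 and Serping1 differences between pull-downs over time was not fixed. With 3 libraries a group, leaving 1 out can hardly move a group mean by the spread between single libraries. That outcome of the left-out fits was therefore close to fixed in advance, and no stability is read from it. The count of other complement genes called between HA and IgG at T3 was 5, and 7 with no filter or in the fit of all 12 libraries, each with 1 higher. From T0 to T3 in HA it was 7, and 13 with total counts as scaling. Mice at T0 and T3 share only a number, with r of 0.142 and 0.0165 in HA and 0.204 and 0.0414 in IgG for numbers 1 and 4. A replicate block on the number gave 12 calls from T0 to T3 in HA and 2 in IgG. Between HA and IgG the block on the animal gave 12 calls at T0, where the fit without it gave 8, and 5 at T3, and 0 in the test of the difference over time. With 1 library left out, the counts ran from 5 to 10 (HA against IgG at T0), 1 to 6 (T3), 5 to 10 (T3 against T0 in HA), 0 to 2 (IgG) and stayed at 0 for the difference over time. Of the calls on single other genes, 39 were lost and 10 gained over the fits with 1 library left out, and 7 were lost and 18 gained under the other settings, with none reversed. The cause was not tested. Depth in IgG at T3 limits every comparison that uses it.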
